A study of Mus musculus with 16 samples.

Results

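m6A peaks in short internal coding exons were examined in mouse peri-infarct cortex. A peak was included when the midpoint of its exonic part lay in coding sequence, in an exon shorter than 400 nt that was neither the first nor the last, and more than 200 nt from the stop codon. The transcript was that with the longest coding sequence in the gene that the peak overlapped most on the same strand. By this rule 22550 of the 169564 listed peaks were in short internal exons, and 146703 of all peaks could be placed on a coding transcript.

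Adult male C57BL/6J mice underwent sham surgery (Sham) or 2 h of middle cerebral artery occlusion, then reperfusion for 0, 6 or 24 h. The reperfused groups are named by that time, as MCAO/R-0 h and so on, or 0 h, 6 h and 24 h for short. No transgene or mutation was given for any group, the methods state 6 mice per surgery group, and each of the 4 groups was represented by 2 MeRIP-seq libraries of cortical tissue, in which fragments carrying m6A were pulled down with an antibody (IP) and compared with the unselected fragments (input). The labels did not say whether the 2 libraries of a group came from separate animals, so that p-values measure only the spread between these libraries, which may be technical. The files held 1 peak list per IP library, with 18775 to 24078 peaks and a score for each peak but no read counts, so that the depth was unknown and the precision rested on the number of libraries. A peak list depends on RNA abundance as well as on methylation, and the 2 cannot be told apart here.

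m6A is deposited on nascent mRNA by the METTL3-METTL14 complex within the sequence RRACH, where R is A or G and H is A, C or U. Exon junction complexes, which are left on the mRNA just upstream of each splice junction, keep the methylation machinery away from nearby sequence. Methylation is therefore known to be sparse in short internal exons and dense in long internal exons, near the stop codon and in the 3' untranslated region.

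The sequences below are examples of the regions that recurred most. They belong to 4 of the 10 regions with a peak in all 8 lists and the highest score ranks, and show the exonic bases shared by all 8 lists (GRCm39, spliced where the span crosses an intron). RRACH motifs are in capitals.
Msl1 (+ strand, chr11:98690153-98690963): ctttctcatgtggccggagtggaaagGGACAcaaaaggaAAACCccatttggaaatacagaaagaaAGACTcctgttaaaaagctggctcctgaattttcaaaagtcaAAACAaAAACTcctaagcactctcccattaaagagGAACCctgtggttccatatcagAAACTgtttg
Psd3 (- strand, chr8:68413242-68413416): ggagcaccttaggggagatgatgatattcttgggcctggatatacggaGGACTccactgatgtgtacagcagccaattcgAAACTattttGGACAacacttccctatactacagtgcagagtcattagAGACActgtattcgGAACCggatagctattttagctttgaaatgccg
Map4 (+ strand, chr9:109892115-109893393): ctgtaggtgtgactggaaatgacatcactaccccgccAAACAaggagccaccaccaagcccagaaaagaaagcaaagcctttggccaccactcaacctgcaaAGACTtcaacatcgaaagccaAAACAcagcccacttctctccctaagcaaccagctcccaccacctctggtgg
Rbm33 (+ strand, chr5:28592894-28594580): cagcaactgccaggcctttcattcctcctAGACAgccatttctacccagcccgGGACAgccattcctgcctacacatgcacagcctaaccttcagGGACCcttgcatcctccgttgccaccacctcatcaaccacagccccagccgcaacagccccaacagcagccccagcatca

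Msl1 encodes the scaffold of a histone acetyltransferase complex, Psd3 a nucleotide exchange factor for ARF6, Map4 a microtubule-associated protein and Rbm33 an RNA-binding protein. The shared sequence held 7 RRACH sites in Msl1, 5 in Psd3, 3 in Map4 and 3 in Rbm33. Not all of the shared bases lay in the short internal exon that held the highest-ranking midpoint. Those that did numbered 138 of 175 in Msl1, 175 of 175 in Psd3, 98 of 175 in Map4 and 95 of 175 in Rbm33. The GGACT form, the form most often methylated in mammals, occurred once in Psd3 and not in the shared sequence of the other 3 regions. Recurrent regions not shown held from 0 to 13 RRACH sites in their shared bases. Epc2 had 13 in 375 nt, Usp32 3 in 150 nt, Myo9a 3 in 50 nt, Commd1 1 in 100 nt, Ankhd1 1 in 75 nt and Lims2 0 in 77 nt.

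The next sequences are of regions that appeared or disappeared relative to Sham, and show the bases common to the lists that held a peak. The regions of Prr14l, Eea1 and Rbm26 had no peak in Sham, whereas those of Syne1, Cobl and Gabrb2 had one in both Sham lists.
Prr14l (- strand, chr5:32989161-32992992): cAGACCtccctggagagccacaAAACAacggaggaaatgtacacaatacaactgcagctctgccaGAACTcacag
Eea1 (+ strand, chr10:95838834-95846729): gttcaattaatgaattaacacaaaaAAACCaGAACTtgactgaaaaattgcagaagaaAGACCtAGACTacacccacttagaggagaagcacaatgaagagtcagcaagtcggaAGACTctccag
Syne1 (- strand, chr10:5118836-5122944): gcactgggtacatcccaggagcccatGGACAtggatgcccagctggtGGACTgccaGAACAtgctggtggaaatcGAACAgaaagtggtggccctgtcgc
Cobl (- strand, chr11:12325955-12328214): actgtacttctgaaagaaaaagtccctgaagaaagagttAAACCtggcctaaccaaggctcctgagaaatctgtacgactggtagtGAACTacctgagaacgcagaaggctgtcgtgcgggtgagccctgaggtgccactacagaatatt
Rbm26 (- strand, chr14:105391011-105391060): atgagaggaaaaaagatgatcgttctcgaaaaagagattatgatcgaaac
Gabrb2 (+ strand, chr11:42484711-42488401): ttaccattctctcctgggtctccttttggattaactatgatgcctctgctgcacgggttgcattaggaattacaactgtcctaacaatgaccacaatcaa

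The shared sequence of Prr14l held 3 RRACH sites, that of Eea1, which encodes a tether of early endosomes, held 5, and that of Syne1, which encodes the nuclear envelope protein nesprin-1, held 4. Of the shared bases 42 of 75 in Prr14l, 93 of 125 in Eea1, 43 of 100 in Syne1, 84 of 150 in Cobl, 50 of 50 in Rbm26 and 66 of 100 in Gabrb2 lay in the short internal exon. The sequences of Rbm26, which encodes an RNA-binding protein, and Gabrb2, which encodes the beta 2 subunit of the GABA-A receptor, held 0.

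Peaks in short internal exons were fewer than an even spread along the same transcripts would give. They made up 15.4% ± 1.12 (SD, n = 8) of the placed peaks, where midpoints placed evenly along the same transcripts gave 22.1% ± 0.305. The ratio was below 1 in 8 of 8 lists, with a mean log2 ratio of -0.52 ± 0.09 (SD, n = 8; two-sided exact sign-flip permutation test, p = 0.00781, the smallest that 8 lists can give). When only peaks whose whole exonic part lay in the exon were counted, and the expectation was restricted likewise, the mean log2 ratio was -0.02 (exact sign-flip permutation test, p = 0.539). Of the peaks that met this stricter condition, 33.7% ± 1.92 (SD, n = 8) had an end of the deposited span outside the exons of the gene models.

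The depletion followed exon length within the short class itself. In exons under 100 nt the observed share was 0.663 ± 0.054 (SD, n = 8) times the even share, and it was 0.625 ± 0.041 times in exons of 100 to under 150 nt. It rose to 0.839 ± 0.052 in exons of 250 to under 300 nt and to 1.23 ± 0.075 and 1.30 ± 0.16 in exons of 300 to under 350 nt and 350 to under 400 nt. Just outside the limit, exons of 400 to under 450 nt had 1.69 ± 0.097 times the even share, and those of 500 to under 1000 nt had 2.14 ± 0.070 times. The ratios of all 8 lists were below 1 in every bin below 300 nt and above 1 in both bins from 300 nt. Of the peaks in short internal exons, 1137 lay in exons of 300 to under 350 nt and 909 in exons of 350 to under 400 nt, beside 892 peaks in exons of 400 to under 450 nt.

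**Figure D1:**
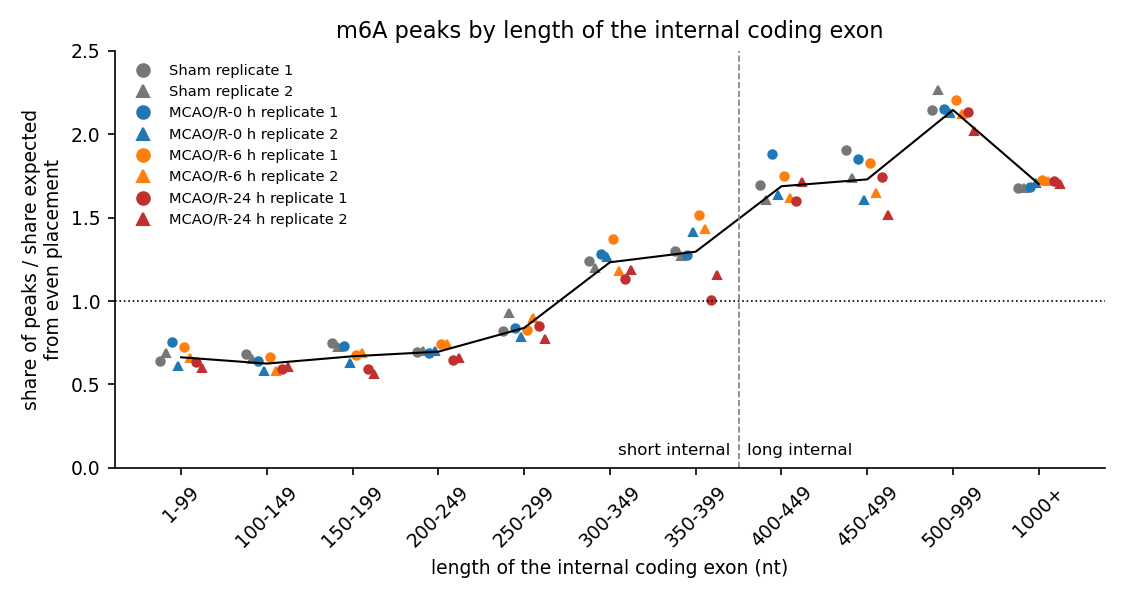
Share of placed peaks in internal coding exons of each length (nt), divided by the share expected from even placement along the same transcripts. Points are the 8 lists by group and replicate, the line joins their means, the dotted line marks equality and the dashed line the 400 nt limit. The means lie between 0.625 and 0.839 below 300 nt and above 1.2 from 300 nt.

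Among the peaks in short internal exons, those in exons of 200 nt or more exceeded even placement over the short internal exons of the same transcripts. The mean log2 ratio was 0.20 ± 0.06 (SD, n = 8; exact sign-flip permutation test, p = 0.00781) and was positive in 8 of 8 lists. With the whole exonic part in the exon the ratio was 0.03 (exact sign-flip permutation test, p = 0.195). The exon before the last held more peaks than even placement gave, with 12.4% ± 0.480 (SD, n = 8) of the peaks against 8.74% ± 0.177. The mean log2 ratio was 0.50 ± 0.04, positive in 8 of 8 lists (exact sign-flip permutation test, p = 0.00781).

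Seen by exon, 12683 of 103063 short internal exons in the transcripts with a placed peak had a peak of this kind in at least 1 list, which is 12.3%. The share was 7.52% for exons under 100 nt, 11.1% for 100 to under 150 nt, 15.3% for 150 to under 200 nt, 21.0% for 200 to under 300 nt and 39.1% for 300 to under 400 nt. A longer exon has more bases that can hold a midpoint, and neither these shares nor the counts that follow were adjusted for length. In all 8 lists a peak midpoint lay in the same exon for 64 exons, of which 28 had 300 to under 400 nt and 1 had fewer than 100 nt.

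Within the exon, the midpoints lay close to a splice junction. The median distance to the nearest junction was 30.4 nt ± 1.06 (SD, n = 8), in exons with a median length of 158 nt ± 1.68. Midpoints within 50 nt of a junction made up 75.3% ± 0.822 (SD, n = 8) of the peaks, against 65.4% ± 0.382 for even placement along the same exons. The mean log2 ratio was 0.20 ± 0.01 and positive in 8 of 8 lists (exact sign-flip permutation test, p = 0.00781).

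The excess was greatest next to the junction and turned into a deficit farther in. At 1 to 25 nt lay 44.2% ± 0.824 (SD, n = 8) of the midpoints against 35.4% for even placement, a ratio of 1.25. The ratio was 1.04 at 26 to 50 nt, 0.917 at 51 to 75 nt, 0.338 at 76 to 100 nt and 0.50 at 101 to 125 nt. Peaks in long internal exons had a similar dip at 76 to 100 nt, with a ratio of 0.542, but a ratio of 0.959 at 1 to 25 nt and of 1.14 and 1.16 at 26 to 50 nt and 51 to 75 nt. The excess within 50 nt was larger in longer exons of the short class. In exons of 200 to under 300 nt it was 62.3% ± 2.44 against 42.1%, and in those of 300 to under 400 nt 43.7% ± 3.20 against 28.4%, whereas exons of 100 to under 150 nt had 83.5% ± 1.28 against 80.5%.

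**Figure D2:**
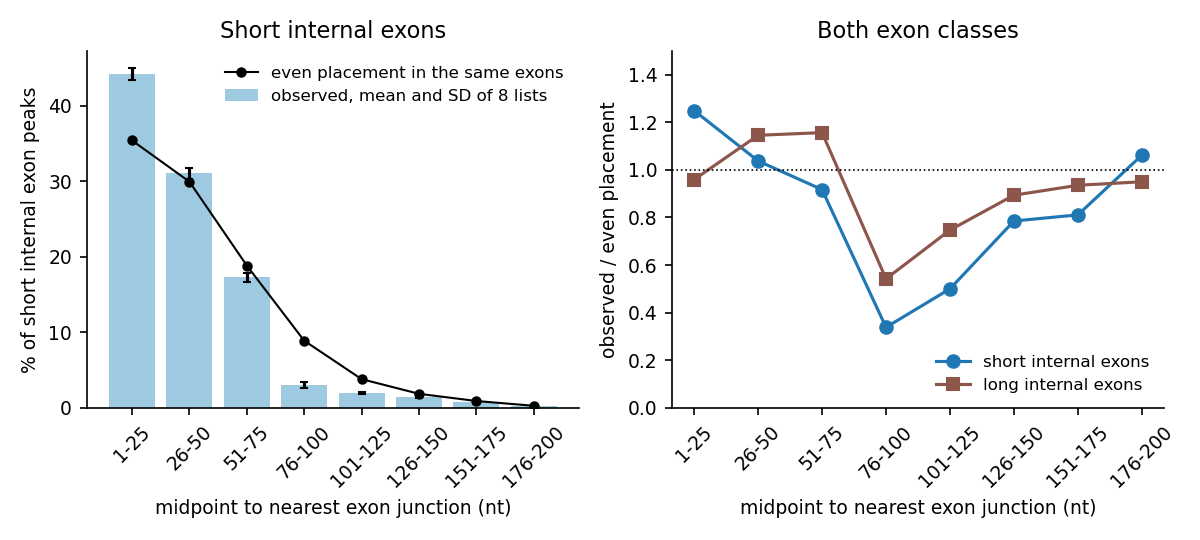
Distance (nt) from the midpoint of the exonic part to the nearest exon junction. Left, percent of peaks in short internal exons, as bars of the mean with SD over 8 lists, and the percent for even placement in the same exons as points; right, the ratio of observed to even placement for short and long internal exons. Short internal exons start at a ratio of 1.25 and both classes are lowest at 76 to 100 nt.

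The peaks were short, with a median exonic length of 75 nt in every list, against a mean of the list medians of 131 nt ± 11.6 (SD, n = 8) in long internal exons (two-sided exact sign-flip permutation test, p = 0.00781, Benjamini-Hochberg adjusted p = 0.00781 over 14 comparisons of this kind). The exonic part stayed within 1 exon for 46.2% ± 0.939 (SD, n = 8) of the peaks, where even placement of peaks of the same length gave 45.8% ± 0.951. It reached an exon of 400 nt or more for 7.77% ± 0.536 and the last exon for 3.66% ± 0.334. The midpoint was in the 3' part of the exon for 46.5% ± 0.777. Both neighbouring exons were themselves short and internal for 70.4% ± 0.991, and 97.4% ± 0.319 of the peaks lay in an exon that was short and internal in every coding isoform holding that position.

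An end of the deposited span lay outside the exons used, in an intron of the coding models, for 18.8% ± 1.40 (SD, n = 8) of the peaks in short internal exons. This share was 3.52% ± 0.369 in long internal exons and 3.22% ± 0.354 within 200 nt of the stop codon, a difference in the same direction in 8 of 8 lists for each (exact sign-flip permutation test, adjusted p = 0.00781). The exonic part of such peaks is cut at the exon edge, which shifts the midpoint. The direction of this shift was not measured. Among peaks with both ends in exons the junction excess was still present, with a mean log2 ratio of 0.18 (exact sign-flip permutation test, p = 0.00781). Whether unspliced RNA or unannotated exons contributed was not tested. The peaks with both ends in exons had an exonic length that was a multiple of 25 nt in 97.9% ± 0.245, so that positions are resolved in steps of that size.

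RRACH sites were denser under the peaks than in unlisted short internal exons of the same transcripts. Sites under peaks were counted over the whole exonic part, which stayed within 1 exon for 46.2% of the peaks. Sequence of neighbouring exons of any kind was thus set against short internal exons only. The density was 18.5 sites per 1000 nt ± 0.358 (SD, n = 8) under peaks and 17.1 ± 0.056 in the unlisted sequence, a mean log2 ratio of 0.11 ± 0.03 that was positive in 8 of 8 lists (exact sign-flip permutation test, p = 0.00781). For GGACT alone the log2 ratio was 0.03 (exact sign-flip permutation test, p = 0.273). Long internal exons had 20.3 ± 0.186 RRACH sites and 1.57 ± 0.043 GGACT sites per 1000 nt, against 18.5 ± 0.335 and 1.19 ± 0.066 in short internal exons, lower in 8 of 8 lists for both motifs (exact sign-flip permutation test, adjusted p = 0.00781). Near the stop codon GGACT reached 1.81 ± 0.050 per 1000 nt. At least 1 RRACH site was present in 71.8% ± 0.728 of the peaks in short internal exons and at least 1 GGACT site in 10.1% ± 0.583. These 2 shares have no matching value for unlisted sequence of the same length, so they do not show an excess.

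These peaks recurred less often than those in long internal exons. A peak overlapping by at least 1 exonic base was found in the other list of the same group for 30.5% ± 3.28 (SD, n = 8) of the peaks in short internal exons and for 63.1% ± 4.01 of those in long internal exons, a mean difference of -32.6 percentage points ± 3.29 that was negative in 8 of 8 lists (exact sign-flip permutation test, p = 0.00781). The values were 28.6% and 27.3% in Sham, 34.0% and 31.3% at 0 h, 33.6% and 34.5% at 6 h, and 28.7% and 26.1% at 24 h. The corresponding share near the stop codon was 63.0% ± 5.11. No overlapping peak in any other list was found for 34.0% ± 1.40 of the peaks in short internal exons, against 8.71% ± 1.17 in long internal exons. An overlapping peak in every one of the other 7 lists was found for 4.87% ± 0.279, against 28.8% ± 2.45. The difference for both measures had the same direction in 8 of 8 lists (exact sign-flip permutation test, adjusted p = 0.00781).

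Peaks that were joined by overlap formed 52774 regions, of which 11418 consisted mostly of peaks in short internal exons. Among these, 7672 were found in 1 list, which is 67.2%, where 52.6% of all regions were found in 1 list. All 8 lists held 141 of them, which is 1.23%, where the share of all regions was 8.97%.

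The score ranks were lower as well. Scores were compared only as percentiles within a list, since their scale is not defined. The median percentile was 42.4 ± 1.30 (SD, n = 8) for peaks in short internal exons and 60.5 ± 0.668 for those in long internal exons, a mean difference of -18.2 ± 1.81 that was negative in 8 of 8 lists (exact sign-flip permutation test, p = 0.00781). Among the highest-scoring 10% of a list were 4.42% ± 0.674 of the peaks in short internal exons and 14.7% ± 0.653 of those in long internal exons. The peaks that recurred had high ranks in both classes. Peaks found in 1 list had a median percentile of 24.2 in short and 23.8 in long internal exons, and peaks overlapped in all 8 lists had 84.6 and 86.4. At an equal number of lists the order of the classes turned, with a higher mean in short internal exons at every number from 1 to 7 and a lower one at 8. No test of this was made. For peaks overlapped in 2 lists the median percentile was 36.1 in short internal exons (range 34.1 to 38.3 over the lists) and 30.1 in long internal exons (range 27.4 to 32.3), and for 4 lists 52.7 (range 50.1 to 55.3) and 45.1 (range 41.6 to 49.5). The ranges did not overlap at 2, 3 and 4 lists (41.66 against 41.62 at the nearest for 3 lists) and overlapped at 1, 5, 6, 7 and 8.

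**Figure D3:**
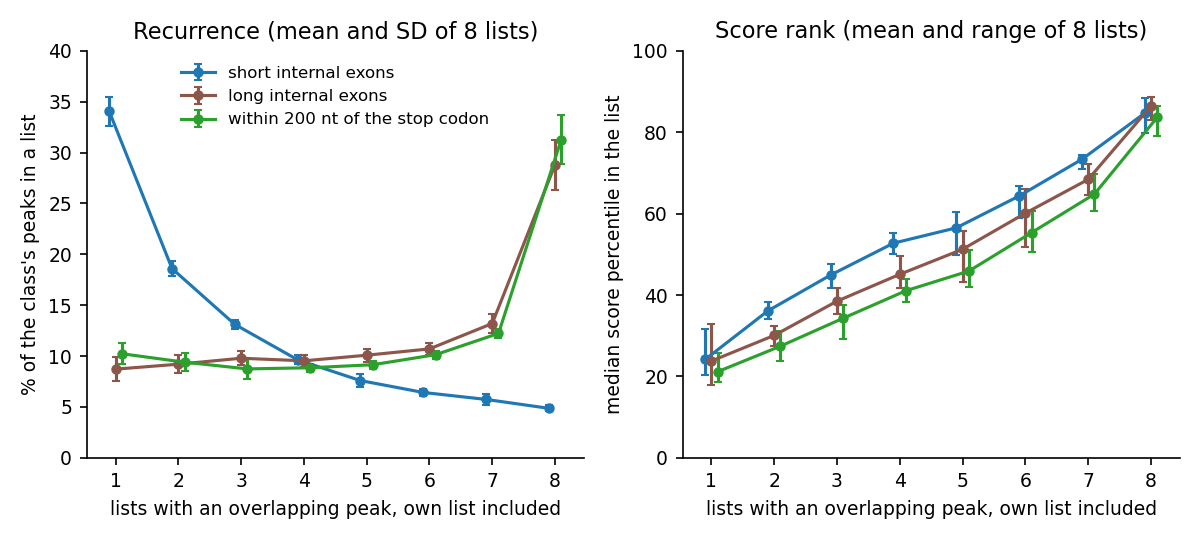
Peaks by the number of lists that hold an overlapping peak, own list included. Left, percent of the class's peaks in a list (mean and SD of 8 lists); right, median score percentile within the list (mean and range of 8 lists). Short internal exons fall from 34.0% in 1 list to 4.87% in 8, long internal exons and stop codon peaks are highest at 8, and the score percentile rises with the number of lists in all 3 classes.

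Recurrent peaks more often extended into a long exon. An exon of 400 nt or more was reached by 3.28% ± 0.493 (SD, n = 8) of the peaks found in 1 list, 8.59% ± 0.669 of those in 2 to 7 lists and 28.9% ± 2.70 of those in 8 lists, and these ranges over the lists did not overlap. The share with an end outside the exons was 17.7% ± 1.76, 19.2% ± 1.38 and 21.5% ± 3.14 in the same order.

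The 10 regions found in all 8 lists with the highest lowest rank were in Commd1, Ankhd1, Epc2, Msl1, Rbm33, Usp32, Psd3, Myo9a, Lims2 and Map4. Their lowest percentile over the 8 lists was 90.7 to 99.2. In 6 of them (Commd1, Ankhd1, Epc2, Usp32, Psd3 and Myo9a) 5 or more of the peaks reached an exon of at least 400 nt, and in Msl1, Rbm33, Lims2 and Map4 none did. The bases shared by all lists lay wholly outside the short internal exon of the highest-ranking midpoint in Ankhd1 and Myo9a. The Myo9a region no longer consisted mostly of peaks of this class without Sham replicate 2, 0 h replicate 2 or 6 h replicate 2.

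The region of Msl1 was centred, by its highest-ranking midpoint, on exon 3 of 9, which has 383 nt. On the Ensembl canonical transcripts the regions of Msl1 and Commd1 did not belong to the class. Its percentiles were 96.0 and 96.5 in Sham, 93.9 and 96.7 at 0 h, 95.3 and 94.4 at 6 h, and 95.2 and 95.6 at 24 h. The lists of 6 h and 24 h were below both Sham lists, those of 0 h overlapped Sham, and the whole range was 93.9 to 96.7.

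The region of Rbm33 was centred on exon 12 of 19, which has 344 nt. The percentiles were 96.8 and 94.4 in Sham, 93.1 and 94.2 at 0 h, 96.2 and 96.0 at 6 h, and 94.8 and 97.0 at 24 h. Both 0 h lists were below both Sham lists, and the other times overlapped Sham.

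The region of Map4 was centred on exon 10 of 19, which has 222 nt. The percentiles were 90.7 and 94.6 in Sham, 97.7 and 95.6 at 0 h, 94.7 and 93.3 at 6 h, and 95.5 and 94.0 at 24 h. Both 0 h lists were above both Sham lists, while those of 6 h and 24 h overlapped Sham.

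Lims2, which encodes a focal adhesion adaptor, had its region in exon 4 of 10, which has 121 nt. All 8 of its peaks had an end outside the exons, and the 77 exonic nt shared by the lists held 0 RRACH sites. The percentiles ranged from 91.1 in 24 h replicate 1 to 99.0 in 0 h replicate 2.

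Usp32, which encodes a deubiquitinase, had a region centred on exon 33 of 34, which has 93 nt and lies 230 nt from the stop codon, and 7 of its peaks ran into the last exon of 2145 nt. Epc2, a component of chromatin acetyltransferase complexes, had its region centred on exon 13 of 14, 307 nt from the stop codon, and the exonic part of its highest-ranking peak was 625 nt long. Commd1, which takes part in copper handling, ranked between 99.2 and 99.7 in all lists. Its highest-ranking midpoint lay 3 nt from the junction with an exon of 680 nt, so that a small shift would place it outside the class.

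To compare the 4 groups, exact permutation was used over the 105 divisions of the 8 lists into 4 pairs, one-sided towards larger differences, with Benjamini-Hochberg adjustment over 5 measures. The smallest p that this design allows is 0.00952. The share of placed peaks in short internal exons was 16.4% and 16.2% in Sham, 16.2% and 14.6% at 0 h, 16.5% and 15.3% at 6 h, and 14.0% and 13.8% at 24 h. Both 24 h lists were below the other 6 lists, but the difference among the 4 groups did not pass the test (exact permutation test, p = 0.143, adjusted p = 0.357). Even placement on the transcripts of each list gave 22.3% in Sham and 21.6% at 24 h. The number of peaks was 2717 and 2850 in Sham, 2821 and 3004 at 0 h, 3159 and 3056 at 6 h, and 2306 and 2637 at 24 h.

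None of the other 4 measures passed the test. The exact permutation p was 0.543 (adjusted p = 0.543) for the share within 50 nt of a junction, 0.495 (adjusted p = 0.543) for RRACH density and 0.257 (adjusted p = 0.429) for the median score percentile. For recurrence in the other list of the group the exact permutation p was 0.0667 (adjusted p = 0.333), with the highest mean at 6 h and the lowest at 24 h, 6.67 percentage points apart. The share of regions in short internal exons common to 2 lists, over those in either, was 0.179 within groups (range 0.161 to 0.202, 4 pairs) and 0.169 between groups (range 0.148 to 0.192, 24 pairs). The difference of 0.0106 was at p = 0.0190 in an exact permutation test over the same divisions. Over all regions the values were 0.375 and 0.361, also with p = 0.0190 (exact permutation test).

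Gained regions were those with a peak in both lists of 1 time and in no Sham list, and lost regions those with the opposite pattern. The 3 comparisons share the Sham lists. With 2 lists against 2 the smallest p is 0.333, so that only counts are given. At 0 h 222 regions in short internal exons were gained, 1.94% of the 11418, where 2.6% of all regions were gained, and 166 were lost, 1.45%, where 1.27% of all regions were lost. At 6 h 321 were gained, 2.81% against 3.43% of all regions, and 168 were lost, 1.47% against 1.4%. At 24 h 154 were gained, 1.35% against 2.53% of all regions, and 232 were lost, 2.03% against 1.84%.

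Gains made up 57.2% of the changed regions in short internal exons at 0 h, 65.6% at 6 h and 39.9% at 24 h, where over all regions gains made up 67.2%, 70.9% and 57.9%. The Sham lists were the shortest on average, with a mean of 19463.5 peaks against 20658.5 to 22702.5 at the other times. Sham replicate 2, with 20152 peaks, was longer than 0 h replicate 1 (19837) and 24 h replicate 1 (19072). With the same number of peaks in each list the direction at 0 h turned in short internal exons, with 173 gained and 178 lost (49.3% gains), while over all regions 1084 were gained and 758 lost. At 6 h and 24 h gains then made up 59.1% and 36.0% in short internal exons, and 60.8% and 53.8% over all regions. At 24 h losses outnumbered gains in short internal exons, whereas gains outnumbered losses over all regions. This contrast was not tested. With a list left out, a single list stood for its group. By the definition this raises losses when a Sham list is left out and gains when a 24 h list is. The counts that follow therefore cannot decide whether the contrast is stable. Without Sham replicate 1, 264 regions in short internal exons were gained and 1702 lost at 24 h, and over all regions 2186 were gained and 6063 lost, so that losses prevailed in both. Without Sham replicate 2 losses prevailed in both as well, with 267 against 1588 and 2497 against 5512. Without 24 h replicate 1 gains prevailed in both, with 1464 against 334 and 7713 against 1626, and without 24 h replicate 2 with 1229 against 355 and 5877 against 1982. The other counts rose in the same way. Without 0 h replicate 1 the gains at 0 h were 1587, and without 6 h replicate 2 those at 6 h were 1746. Without Sham replicate 1 the losses at 0 and 6 h were 1543 and 1571.

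**Figure D4:**
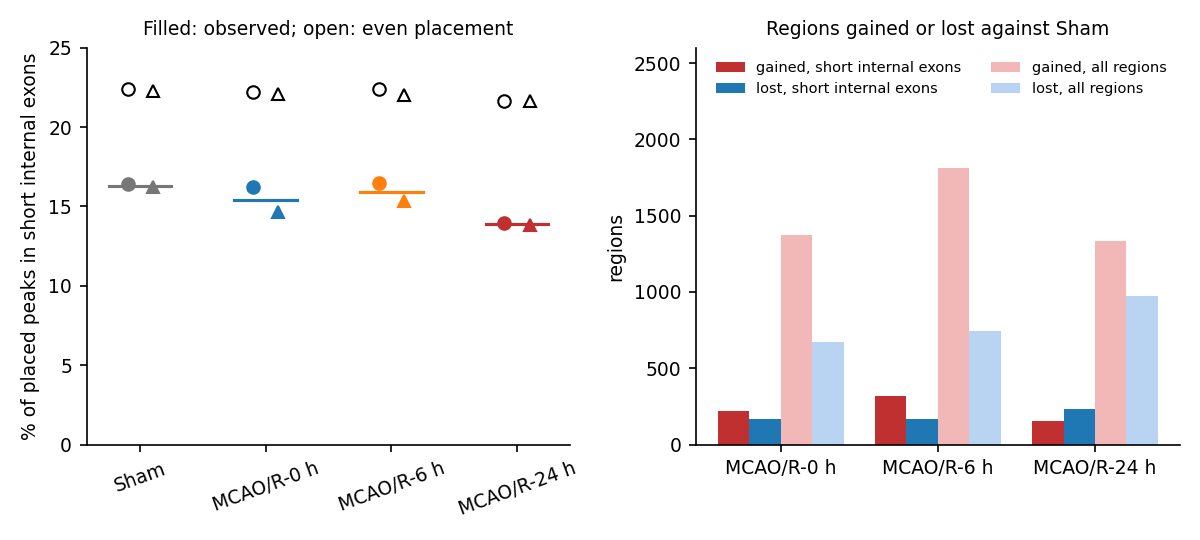
Left, percent of placed peaks in short internal exons by group, filled for the observed share and open for even placement, circles for replicate 1 and triangles for replicate 2, with a line at the group mean. Right, number of regions gained or lost against Sham at each reperfusion time, for short internal exons and for all regions; at 24 h short internal exons have 154 gained and 232 lost.

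The gained regions with the highest ranks at 0 h included those in Prr14l, Rbm25 and Rbm26. Prr14l, with a peak centred on exon 5 of 11, which has 54 nt, had percentiles of 99.9 in both 0 h lists and both 6 h lists, and no peak in Sham or at 24 h. Other peaks in Prr14l were found in all 8 lists. It led the gained regions at both 0 h and 6 h and had the highest percentiles of all regions named.

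Rbm25 encodes a splicing regulator, and its region, centred on exon 12 of 19 with 90 nt, had percentiles of 94.6 and 94.7 at 0 h and no peak in the other 6 lists. Rbm26 had percentiles of 92.2 and 92.9 at 0 h and 92.3 in 6 h replicate 1. Both regions were absent from both Sham lists, and that of Rbm26 extended to a single list of a later time. Other peaks were found in Rbm25 in 6 lists and in Rbm26 in all 8.

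At 6 h the gained regions were led by Prr14l, Eea1, Mycbp2 and Ncor1. Eea1 had percentiles of 86.3 and 87.9 at 0 h and 98.3 and 97.5 at 6 h, centred on exon 11 of 29 with 339 nt. Mycbp2, which encodes a neuronal ubiquitin ligase, had 96.0 and 95.9 at 6 h, and its region had no peak in any other list. Ncor1, a nuclear receptor corepressor, had 95.3 and 97.2 at 6 h, with 94.7 in 0 h replicate 2 and 92.4 in 24 h replicate 2. In Eea1, Mycbp2 and Ncor1 other peaks were found in all 8 lists.

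At 24 h the gained regions were led by Gigyf2, Cacna1e, Kmt2c and Pkp4. Gigyf2, a translational repressor, had 94.5 and 93.7 at 24 h, and also 97.4 in 0 h replicate 1 and 97.7 in 6 h replicate 2. Cacna1e, the pore subunit of R-type calcium channels, had 84.0 and 87.5 at 24 h, with 77.8 in 0 h replicate 2 and 91.1 in 6 h replicate 1. All 4 of its peaks had an end outside the exons. Kmt2c, a histone H3 lysine 4 methyltransferase, had 85.4 and 80.0 at 24 h, with 62.8 in 0 h replicate 1 and 82.8 in 6 h replicate 1. Pkp4, a junctional plaque protein, had 80.2 and 79.5, and its region was the only one of the 4 with no peak at another time. The bases that its 2 lists shared lay outside the short exon. In each of these 4 genes other peaks were found in all 8 lists.

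The lost regions at 0 h were led by Btbd8, Ppp1r9a, Sel1l and Gabrb2. Ppp1r9a, which encodes the neuronal actin-binding scaffold neurabin, had percentiles of 94.6 and 92.6 in Sham, in exon 17 of 18 with 183 nt, and no peak at any reperfusion time. It lay 357 nt from the stop codon and was not in the class when 400 nt were required. Sel1l, an adaptor of endoplasmic reticulum-associated degradation, had 91.9 and 90.4 in Sham and likewise no other peak in the region. Gabrb2 had 86.9 and 88.0 in Sham, no peak at 0 h, 81.7 and 76.6 at 6 h and 89.2 and 92.6 at 24 h. The region of Btbd8 was likewise absent only at 0 h, and 5 of its 6 peaks had an end outside the exons. Other peaks in Gabrb2 and Btbd8 were found in all 8 lists.

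At 6 h and 24 h the lost regions shared Ppp1r9a, Syne1 and Cobl. Syne1 had 91.4 and 94.8 in Sham and 87.6 in 0 h replicate 1, centred on exon 97 of 146. Cobl, an actin nucleator, had 90.9 and 91.7 in Sham and 90.9 in 0 h replicate 1, centred on exon 4 of 15. Both were absent from all later lists. Sel1l completed the 4 at 6 h and Apc, a regulator of Wnt signalling, those at 24 h. The Apc region was in exon 10 of 16 and had 94.5 and 93.6 in Sham, 92.9 and 89.3 at 0 h, 88.7 in 6 h replicate 2 and no peak at 24 h. In each of these genes other peaks were found in all 8 lists.

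Regions in both lists of 1 group and in no other list were few. They numbered 63 in Sham, 0.552% of the regions in short internal exons where 0.371% of all regions were of this kind, and 78 at 0 h, 0.683% against 0.64%. At 6 h there were 102, 0.893% against 0.868%, and at 24 h 39, 0.342% against 0.627%. The highest ranks were those of Ppp1r9a and Sel1l in Sham, Rbm25 and Spire1 at 0 h, Mycbp2 and Dennd4c at 6 h, and Pkp4 and Rsrc1 at 24 h. Spire1, an actin nucleator, had percentiles of 86.4 and 87.1, and Dennd4c, an exchange factor for Rab GTPases, had 86.2 and 85.7. Rsrc1, a splicing-related protein, had 70.5 and 75.5, and both peaks had an end outside the exons. Other peaks were found in Spire1 in 2 lists, and in Dennd4c and Rsrc1 in all 8.

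**Figure D5:**
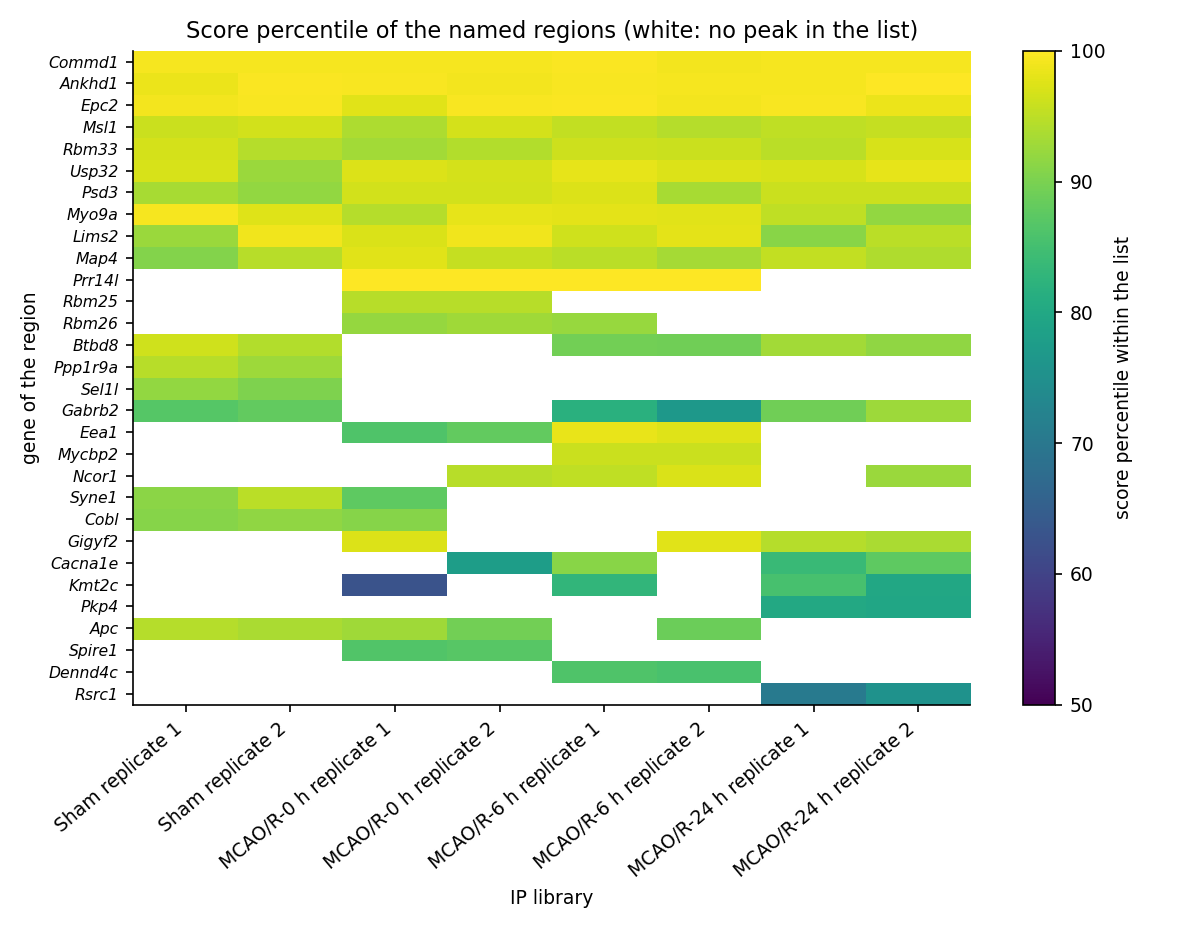
Score percentile within the list for each named region (rows, by gene) in each IP library (columns), with white where the list held no peak. The upper 10 rows are filled in all 8 lists, Prr14l is near 99.9 in the 4 lists of 0 h and 6 h, and Ppp1r9a and Sel1l are filled in Sham only.

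By gene, 9671 genes had a placed peak and at least 1 short internal coding exon, and 5579 of them (57.7%) had a peak in such an exon in at least 1 list. In 2220 genes this was so in 1 list and in 254 genes (2.63%) in all 8. Genes with a peak had a median of 10 short internal exons and genes without had 5. Most genes held few regions, with 2710 holding 1 and 479 holding 5 or more.

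The genes with the most regions encode very large proteins. Syne1 had 45 regions and 114 peaks, with 49 of its 142 short internal exons holding a midpoint. Its peaks numbered 17 and 16 in Sham, 17 and 9 at 0 h, 13 and 18 at 6 h, and 9 and 15 at 24 h. As a share of all peaks in short internal exons these were 0.626% and 0.561% in Sham and 0.390% and 0.569% at 24 h, and every time overlapped Sham. Akap9, a scaffold of the centrosome and Golgi, had 21 regions, with 10 and 11 peaks in Sham, 5 and 9 at 0 h, 8 and 5 at 6 h and 5 and 5 at 24 h. Both Sham lists were above all 6 reperfusion lists, also as a share of all peaks in short internal exons, with 0.368% and 0.386% against 0.164% to 0.300%, without a test.

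Utrn, which encodes utrophin, also had 21 regions, Robo1, the Slit receptor, and Pcnt, the centrosomal protein pericentrin, had 17 each, and Bdp1, a subunit of an RNA polymerase III initiation factor, Kdm3b, a histone demethylase, and Cntrl, a centriolar protein, had 15 each. Robo1 was the most densely covered, with a midpoint in 17 of its 26 short internal exons. In Cntrl the count ranged from 0 to 9 peaks per list, with 1 and 9 in the 2 Sham lists.

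The gene lists differed in how many of their members had such peaks. Of the chromatin regulators with a placed peak and a short internal exon, 46 of 51 (90.2%) had a peak in a short internal exon and 15 (29.4%) had one in all 8 lists, beside 57.7% and 2.63% over all genes. These genes had a median of 23 short internal exons. Kmt2e and Chd8, a histone methyltransferase-family protein and a chromatin remodeller, and Chd9, another remodeller, each had a region found in all 8 lists. The chromatin list held 91 and 76 peaks in Sham, 89 and 67 at 0 h, 91 and 80 at 6 h, and 74 and 74 at 24 h. As a share of all peaks in short internal exons these were 3.35% and 2.67% in Sham, and 3.15% and 2.23% at 0 h. At 6 h the shares were 2.88% and 2.62% and at 24 h 3.21% and 2.81%, so that every time overlapped Sham.

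Among genes of the exon junction complex and nonsense-mediated decay, 15 of 18 (83.3%) had such a peak, and 5 (27.8%) in all 8 lists. The shares over all genes were 57.7% and 2.63%. The median in this list was 10.5 short internal exons per gene. The decay factors Upf3b and Upf3a and the complex-associated protein Pnn had a region in all 8 lists, in exons of 161, 56 and 139 nt, with mean percentiles of 85.7, 72.3 and 72.6. Upf2 had peaks in all 8 lists in different regions, with at most 6 lists for 1 region. Of the core of the complex, Casc3 had peaks in 7 lists, Rbm8a in 2 and Eif4a3 in 1. Srrm1 had them in 7 lists, Acin1 in 6, Smg1 in 2, and Rnps1, Smg5, Upf1 and Smg8 in 1 list each. The list held 21 and 15 peaks in Sham, 18 and 22 at 0 h, 17 and 19 at 6 h, and 11 and 14 at 24 h. As a share of all peaks in short internal exons these were 0.7729% and 0.5263% in Sham and 0.4770% and 0.5309% at 24 h, so that the groups overlapped.

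The m6A machinery itself had such peaks in 8 of 12 genes (66.7%), 3 of them (25%) in all 8 lists. The median in this list was 7 short internal exons per gene. Zc3h13, a subunit of the writer complex, had 33 peaks with a mean percentile of 80.6 and a midpoint in 10 of its 13 short internal exons. Wtap, the subunit that localises the writer to nuclear speckles, had a region in all 8 lists in exon 6 of 8, and Virma, another subunit, had peaks in all 8 lists. Ythdc1, the nuclear reader, had 22 peaks in 7 lists with a mean percentile of 77.8. The catalytic pair differed, with 11 peaks in 6 lists for Mettl14 and 2 peaks in 2 lists for Mettl3. Cbll1 had 3 peaks and Fmr1, an RNA-binding reader, had 4, in 3 lists each.

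Genes of synaptic transmission were nearer to the rate over all genes or below it. Among glutamate receptors and postsynaptic scaffolds 15 of 34 (44.1%) had a peak in a short internal exon and none in all 8 lists. Grm8, a metabotropic glutamate receptor, had a region in 7 lists, Grin3a one in 4 and Dlgap2 one in 3. Among voltage-gated ion channels 18 of 28 (64.3%) had one and none in all 8 lists, led by the potassium channel gene Kcnd2 in 7 lists with a mean percentile of 92.4, the sodium channel gene Scn2a with a region in 6 lists and Cacna1e with one in 4. The medians were 12.5 short internal exons per gene for the glutamate receptor list and 13 for the channel list.

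The other lists fell on both sides of that rate. Axon guidance genes had a peak in 29 of 36 (80.6%) and 1 gene in all 8 lists, led, by the lists that held a single region, by Robo1 (6 lists), Sema3a (4) and Dcc (3). Extracellular matrix and integrin genes had 26 of 33 (78.8%) and 2 in all 8 lists, led in the same way by Lamc1 (8 lists), Col6a2 (7) and Lama4 (4). The lipoprotein receptor family had 9 of 13 (69.2%) and 2 in all 8, with regions of Lrp6 and Lrp1b in all 8 lists and one of Lrp8 in 5, and cytoskeleton and motor genes had 19 of 30 (63.3%) and none in all 8, with a region of Myo6 in 4 lists and one of Ank3 in 3. These genes have many exons, with medians of 17.5, 28, 18 and 33 short internal exons.

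The fewest were in genes of the injury response. Among ferroptosis and p53 pathway genes 5 of 16 (31.3%) had a peak in a short internal exon and none in all 8 lists. Nfe2l2, the regulator of the antioxidant response, had 7 peaks in 4 lists, Bbc3, a pro-apoptotic p53 target, had 6 peaks in 4 lists, and Ncoa4, a ferritin receptor, had 2. Among immediate early and heat shock genes 5 of 14 (35.7%) had one, with 3 peaks in Dnaja1 and 1 each in Hsp90aa1 and Hsph1, the latter both in Sham replicate 1. These lists had medians of 7 and 6 short internal exons per gene.

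Peaks were also looked up in markers of the tissue, where a peak shows that an RNA was sampled and its absence shows nothing about expression. A peak of any kind in at least 1 list was found in 4 of 6 neuronal markers, 4 of 5 astrocyte markers, 2 of 5 oligodendrocyte markers, 4 of 5 microglia markers and 5 of 5 endothelial markers, and in 1 of 5 liver markers. The markers with no peak included Snap25, Syt1, Gfap, Mag, Cnp and Aif1.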

How the data were processed

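MeRIP-seq peak lists of 8 IP libraries were used, 2 per group, grouped by the labels. The 8 input libraries were not analysed here. The authors trimmed reads with Trim Galore, aligned them to GRCm39 with HISAT2, used SAMtools to discard reads that were unmapped or mapped to several places, and ran exomePeak2 as the peak caller. The deposited score of each peak has no defined scale and was ranked within its list. No per-sample counts were given, so depth is unknown.

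Peaks were rebuilt on GENCODE M39 exons and placed by the midpoint of their exonic part. Python 3.11.15, numpy 2.4.6, scipy 1.17.1, pandas 2.3.3, pysam 0.24.0 and matplotlib 3.10.9 were used. Even placement was computed from the transcript models. Lists were compared with expectations by exact sign flips over 8 lists, and groups by exact permutation. The steps were tested on simulated data. Motifs were searched on the transcribed strand. RRACH has R for A or G and H for A, C or T.

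The definition, the gene lists and the tests were chosen with earlier results of these data known. The 14 class comparisons, the overlap of list pairs, the extension into long exons and the shares of peaks with an end outside the exons were chosen after the lists were seen. Genes were named by rule: the 10 regions in all 8 lists with the highest lowest percentile, the 4 gained and 4 lost regions per time and the 2 regions per single group with the highest lower percentile, the 8 genes with most regions, the 3 genes per gene list with a single region found in most lists, and every exon junction complex and m6A machinery gene with a peak. Some of the regions and genes that these rules and the marker list take are not reported here. Alternatives left out each list, equalised or halved the lists, or changed the definition, transcript, motif, overlap or permutation.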

Additional observations from a re-analysis of the deposited data

How the results depend on the processing

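Under "whole peak in the exon", the log2 ratio over even placement was -0.016 (exact permutation p = 0.539) for the share of peaks and 0.028 (exact permutation p = 0.195) for exons of 200 nt or more, and gained and lost counts at 0, 6 and 24 h were 79 and 58, 108 and 62, and 43 and 83. For GGACT in place of RRACH the log2 ratio was 0.033 (exact permutation p = 0.273). With the higher-scoring 50% of each list the counts were 92 and 91, 157 and 95, and 67 and 114. Leaving out each list in turn gave log2 ratios of -0.54 to -0.51 for the share of peaks, 0.20 to 0.21 for junction proximity, 0.19 to 0.21 for exons of 200 nt or more, 0.49 to 0.51 for the exon before the last and 0.11 to 0.12 for RRACH density, and differences of -33.1 to -31.7 points for recurrence and -18.6 to -17.8 for score percentile. The unadjusted group p ranged over 0.0667 to 0.257 for the share, 0.419 to 0.876 for junctions, 0.0286 to 0.762 for RRACH, 0.133 to 0.200 for recurrence and 0.0190 to 0.610 for score. Gained counts ranged over 220 to 1587, 319 to 1746 and 149 to 1464 at 0, 6 and 24 h, and lost counts over 165 to 1543, 166 to 1571 and 231 to 1702, since a single list then stood for its group. Of the 42 named calls 41 or 42 were kept without each list and 36 beyond 400 nt from the stop codon (without Epc2, Usp32 and Ppp1r9a). On the canonical transcript 40 were kept (without Msl1 and Commd1), and 6 with the whole peak in the exon (Lims2, Rbm26, Btbd8, Cacna1e, Spire1 and Rsrc1). The last condition was applied to the exonic part only. An end of the deposited span lay outside the exons for 8 of 8 peaks in Lims2, 5 of 6 in Btbd8, 4 of 4 in Cacna1e and 2 of 2 in Rsrc1. A call asks only for the lists that remain, so leaving a list out can hardly undo it. The counts kept without each list are therefore no measure of stability. Same-numbered lists did not deviate together (correlations 0.014 to 0.044), and permuting within replicate numbers (replicate block) gave p = 0.0833 for the share, 0.625 for junctions, 0.417 for RRACH, 0.167 for recurrence and 0.333 for score by exact permutation. The replicate block changed no call. Limiting factors are 2 lists per group, unknown depth, a step of 25 nt and peaks that may reflect RNA abundance.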
